A study of Drosophila melanogaster with 4 samples.

Results

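DREF peaks that lie close together on the chromosome were examined in Kc167 cells, a Drosophila melanogaster line of embryonic origin kept in serum-free CCM3 medium. Of the 1937 DREF peaks in the list called total, 1255 lie on the arms 2L, 3L, 3R and X, and 371 of these have the midpoint of another peak within 10000 bp of their own. Chaining linked peaks gave 171 clusters, and the other 884 peaks on these arms are called lone peaks. Members were chosen by position alone, so their scores and their mitotic overlap took no part in the choice. The other arms and sequences were not analysed here.

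The study profiled DREF by chromatin immunoprecipitation and sequencing with a rabbit polyclonal antibody, in 2 libraries labelled total and 2 labelled mitosis. Both conditions come from the same line with no stated genotype or drug difference, and the way in which mitotic cells were collected is not stated. Each condition is represented by 1 deposited peak list, in which each peak has a position and a score of unstated unit. There are no values per library and no read counts, so depth is unknown, and every interval below covers counting error or the spread over peaks, not the spread between cultures.

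DREF (DNA replication-related element-binding factor) is a zinc finger protein that binds a short palindromic element in the promoters of many genes for DNA replication, cell growth and basic metabolism. Its element can overlap that of the boundary protein BEAF-32, and the study's title counts DREF among the insulator proteins. Drosophila genes are densely packed, often head to head, so promoters can lie a few kilobases apart. On mitotic chromosomes many transcription factors leave their sites while others are retained, and the comparison of the lists asks which DREF sites are seen in both.

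Clusters were small and short. There were 147 clusters of 2 peaks, 20 of 3, 3 of 4 and 1 of 5, so 294 of the 371 members belonged to pairs. The median span, from the first start to the last end, was 6.57 kb over all clusters, with a range of 1.85 to 26.3 kb. Pairs spanned a median of 6.11 kb, clusters of 3 a median of 9.03 kb, and the clusters of 4 19.0 to 20.3 kb. The 200 links between neighbouring members had a median midpoint distance of 4788 bp, and the middle 50% lay between 2662 and 6954 bp. Median peak width was 1007 bp in clusters and 1006 bp among lone peaks. No 2 peaks touched, and the smallest gap between borders was 25 bp.

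The closest midpoints were 973.5 bp apart, in a pair on X at 19219614 to 19221462. Its members scored 3.56 and 7.95, and only the stronger overlapped a mitotic peak. The next pair, on X at 16861207 to 16863255, had midpoints 1037 bp apart and scores of 6.85 and 7.66, and both members overlapped mitotic peaks with mitotic scores of 10.85 and 9.71. The third link, 1090.5 bp long, lay in a cluster of 3 on X at 7826925 to 7830463. Its members scored 5.67, 4.31 and 3.47, and the first alone overlapped a mitotic peak. Whether a close pair is 1 site called as 2 peaks was not tested. Links of at most 2 kb numbered 28 of 200. At the limit itself, the last link inside was 9999 bp long, on 3R between peaks of scores 7.46 and 4.83. The first lone peaks outside had neighbours at 10027.5 bp (3R, score 11.56) and 10056.5 bp (2 peaks on X, scores 10.93 and 10.84).

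Membership differed between arms. On X 135 of 343 peaks were in clusters (39.4%, exact 95% binomial interval 34.2 to 44.7%), on 3R 116 of 396 (29.3%, 24.9 to 34.0%), on 3L 70 of 301 (23.3%, 18.6 to 28.4%) and on 2L 50 of 215 (23.3%, 17.8 to 29.5%). Peak density was 15.4 per Mb on X, 14.2 on 3R, 12.4 on 3L and 9.65 on 2L, so 3L and 2L had the same share in clusters at different densities. Since membership is a matter of position, these shares are given as a description. X held 61 of the 171 clusters and 11 of the 24 with 3 or more members. Along the arms, 21 of 99 bins of 1 Mb that held a peak had no cluster, 68 had 1 to 3 and 10 had 4 or more. The richest bin was on X at 16000001 to 17000000, with 19 of 29 peaks in 8 clusters. It was followed by 7 clusters each on 3R at 5000001 to 6000000, on X at 15000001 to 16000000 and on X at 18000001 to 19000000.

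**Figure D1:**
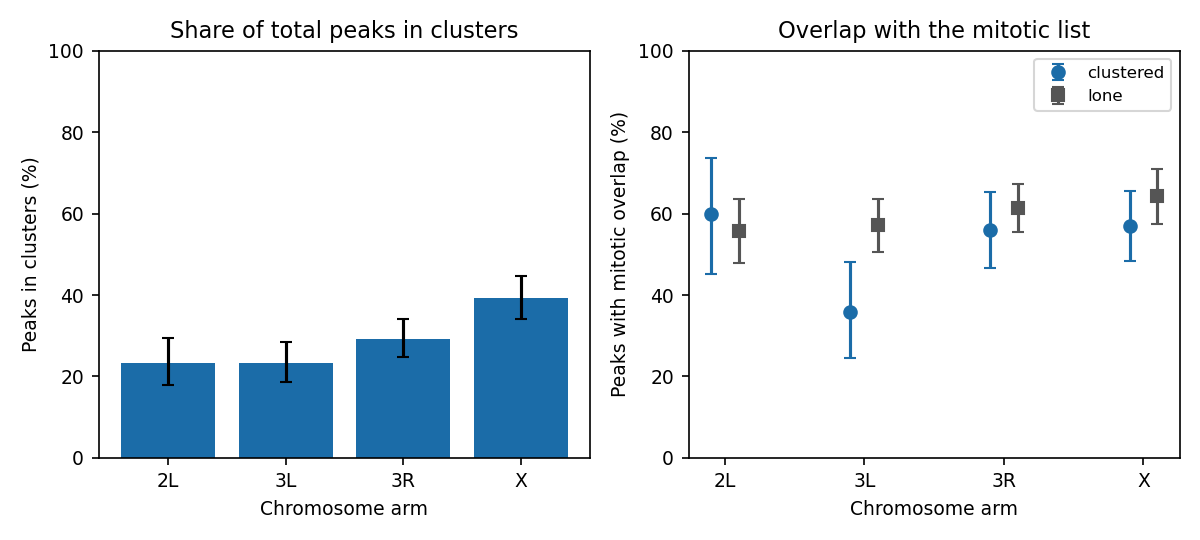
Left, share of total peaks that are in clusters on each arm (bars, percent); right, share of clustered (circles) and lone (squares) peaks that overlap a mitotic peak (percent), error bars being exact 95% binomial intervals. X has the highest share in clusters (39.4%), and on 3L clustered peaks overlap the mitotic list in 35.7% of cases against 57.1% of lone peaks.

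The largest clusters held peaks with scores from 2.57 to 7.92 and were mixed in their mitotic overlap. The cluster of 5 lay on 3L at 7327889 to 7354152. Its scores were, in order, 5.03, 4.94, 3.41, 3.90 and 6.92, and the last 2 overlapped mitotic peaks with mitotic scores of 5.96 and 7.93. The mitotic overlap thus lay at one end of the cluster, and one of the overlapping peaks was weaker than 2 that did not overlap. A cluster of 4 on X at 21476283 to 21495953 had scores of 5.26, 5.87, 5.23 and 4.65, and the first alone overlapped a mitotic peak, with a mitotic score of 8.57. These 4 peaks are nearly level, the weakest being 79.2% of the strongest. Another cluster of 4 on X, at 5792268 to 5811306, had scores of 2.92, 2.57, 7.92 and 5.61. Its 2 stronger peaks overlapped mitotic peaks with mitotic scores of 11.62 and 8.95, and its 2 weaker peaks did not. The third cluster of 4, on 2L at 19113872 to 19134205, had scores of 4.95, 6.25, 3.34 and 3.40, and only its strongest peak overlapped a mitotic peak (mitotic score 10.21). In the 24 clusters of 3 or more the strongest peak was at an edge in 12.

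**Figure D2:**
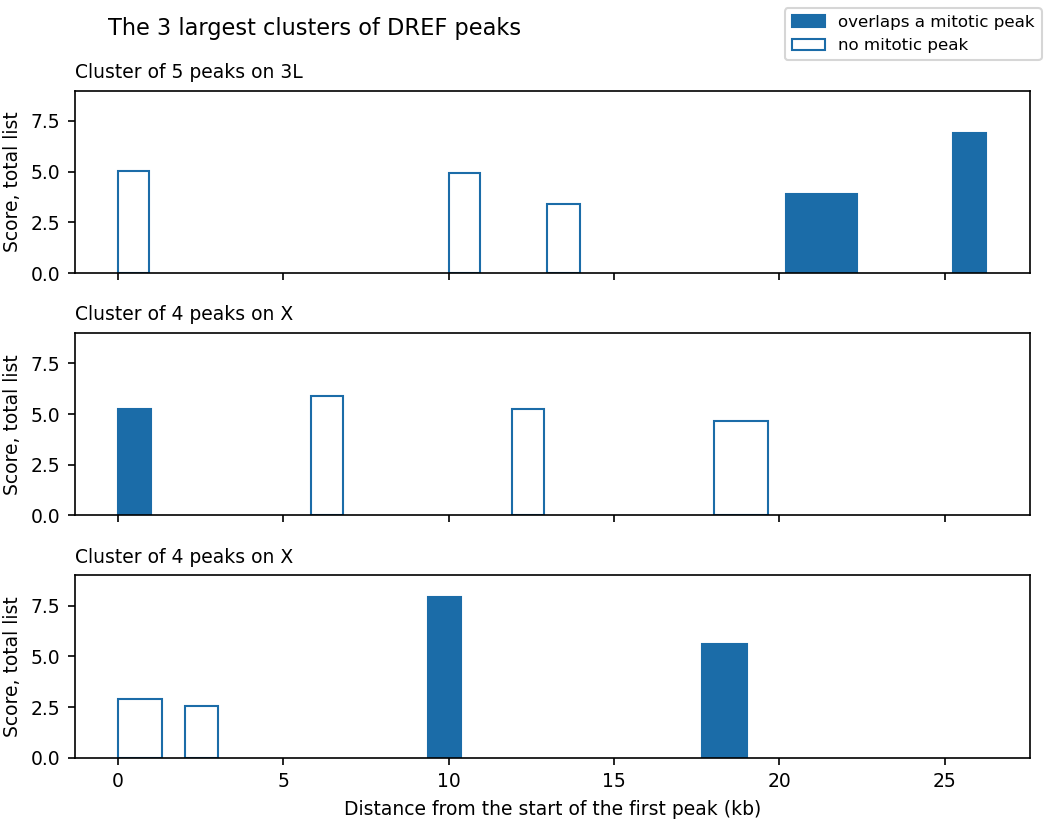
The 3 clusters with the most members: bars show each peak's score in the total list (vertical axis, deposited units) at its distance from the start of the first peak (kb), as wide as the peak, filled where it overlaps a mitotic peak and open where it does not. All 3 are mixed, with 2 of 5, 1 of 4 and 2 of 4 peaks filled.

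Over the 4 arms together, clustered peaks scored slightly lower than lone peaks. The median score was 5.35 in clusters (middle 50% 4.30 to 7.40, range 2.01 to 20.66), 5.75 among lone peaks (4.60 to 7.96, range 1.80 to 22.34) and 5.67 over all 1255 peaks. In a linear fit of log2 score over all peaks, with errors grouped by 1-Mb bin, clustered peaks were 0.928 times as high (n = 1255 peaks, log2 difference −0.11, 95% interval −0.18 to −0.04, p = 0.00325). It no longer passed without 3L (−0.075, −0.16 to 0.01) or with link distances of 5000 bp (−0.086) and 20000 bp (−0.057). The difference is small beside the spread of either class, and its direction was not the same on all arms. Median scores in clusters and among lone peaks were 4.86 and 5.72 on 3L, 5.58 and 6.04 on X and 5.635 and 5.72 on 3R. On 2L clusters were higher, at 6.085 against 5.72. The 1255 peaks were also put in 5 score classes of 20% each. The weakest class held 24.5% of clustered and 18.1% of lone peaks, and the strongest class 17.0% and 21.3%.

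The strongest cluster member scored 20.66, with a mitotic score of 38.65, and lay on 3R at 5925878 to 5927024. Scores of 19.86 and 19.27 followed, also on 3R, at 27044787 to 27047447 and at 796077 to 797275, both in clusters of 3. The former was 2661 bp wide and the only one of the 371 members to span 2 mitotic peaks. Its neighbours scored 4.91 and 5.90, and those of the latter 11.07 and 4.77. The strongest lone peak scored 22.34. The widest member, 3467 bp on 3L at 652334 to 655800, scored only 2.93.

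Within clusters the scores were often unequal, as they were between neighbours farther apart. Over 147 pairs the stronger peak was a median of 1.41 times as high as the weaker (middle 50% 1.18 to 1.81, highest 6.56). Taking all links, the weaker peak reached a median of 70.8% of the stronger within 10 kb (200 links, middle 50% 53.8 to 87.0%) and 67.1% beyond 10 kb (1051 links, 51.1 to 84.3%). More than 2-fold apart were 44 of 200 near links (22.0%) and 249 of 1051 far ones (23.7%). The fit gave a difference in the absolute log2 ratio, near minus far, of −0.07 (n = 1251 links, 95% interval −0.14 to 0.01, p = 0.0749), which did not pass. Over all peaks, near neighbours were thus not shown to be better balanced. It passed without 3R (−0.10, −0.19 to −0.02) and in the stronger 50% of each list (−0.11, −0.21 to −0.0045).

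Pairs at both extremes illustrate this. The most unequal pair lay on 3R at 5925878 to 5936267, with scores of 20.66 and 3.15, 9372 bp apart. The next, on X at 10657809 to 10663134, had scores of 3.05 and 16.82, and the third, on X at 18133013 to 18137961, had scores of 18.59 and 3.96. In each of these only the strong peak overlapped a mitotic peak, with mitotic scores of 38.65, 30.92 and 38.84. At the other end, a pair on 3R at 21706690 to 21714750 had 2 peaks of score 10.32, with mitotic scores of 15.04 and 14.26. A pair on 3L at 12407506 to 12411172 had 2 peaks of score 4.63, neither of which overlapped a mitotic peak. A pair on 3R at 15884374 to 15892872 scored 5.72 and 5.75, with mitotic scores of 8.19 and 8.76. Level pairs therefore occurred with and without mitotic overlap.

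The pairs with the highest summed scores were on 3R and X. On 3R at 26631967 to 26634804 the peaks scored 9.74 and 14.34, with mitotic scores of 12.00 and 24.18. On X at 18259656 to 18265578 they scored 7.71 and 16.10, with mitotic scores of 9.85 and 27.99. The pair that shared the second place, with a summed score of 23.81, was the most unequal pair described above.

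**Figure D3:**
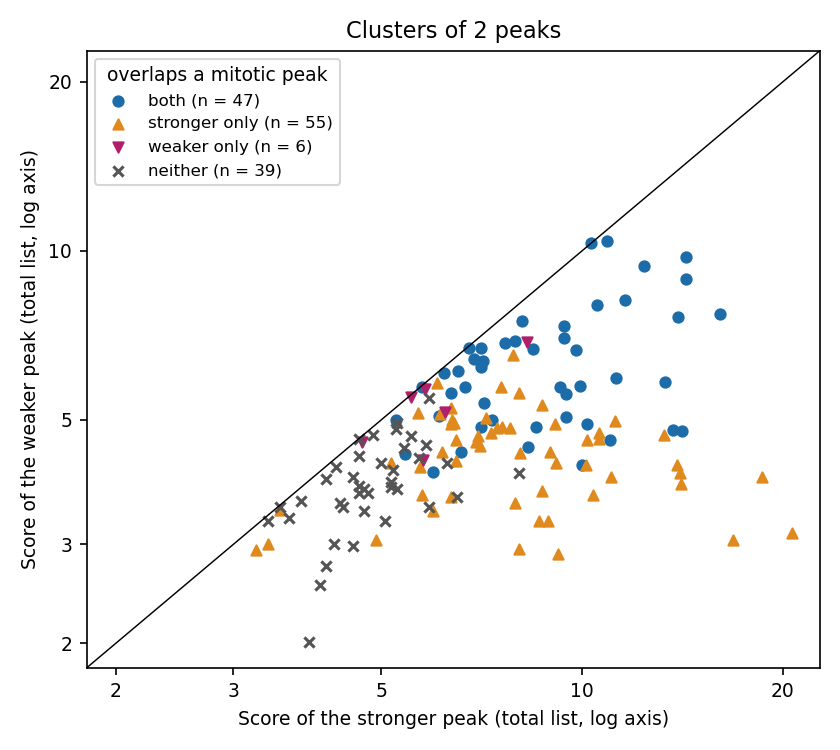
Each symbol is 1 of the 147 clusters of 2 peaks, with the score of the stronger peak on the horizontal and of the weaker on the vertical axis (total list, both log axes); the line marks equal scores. Both peaks overlap a mitotic peak in 47 pairs, only the stronger in 55, only the weaker in 6 and neither in 39, and pairs with neither lie at low scores.

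Cluster members were found in the mitotic list somewhat less often than lone peaks. Of the 371 members, 197 overlapped a mitotic peak by at least 1 bp (53.1%, exact 95% binomial interval 47.9 to 58.3%), against 57.9% of all peaks on these arms and 530 of 884 lone peaks (60.0%, 56.6 to 63.2%). The difference, clustered minus lone, was −6.86 percentage points (Newcombe 95% interval −12.9 to −0.866). It did not pass without 3L (−3.81 points, −10.5 to 2.85), with a link distance of 5000 bp (−4.02 points, −11.6 to 3.40) or in the stronger 50% of each list (−9.17 points, −20.1 to 1.61). In both classes the overlapping peaks were the stronger ones. Their median total score was 7.06 in clusters and 7.37 among lone peaks, and that of peaks without overlap was 4.35 and 4.51. In all 197 overlapping members the mitotic peak, or the higher one where there were 2, lay within the borders of the member. The same held for 529 of 530 overlapping lone peaks. The starts were identical in 25 of the 197 members (12.7%) and in 73 of the 530 lone peaks (13.8%). The sources do not say whether any mitotic reads entered the total list.

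At equal score the classes were not told apart. With the log2 score in a logistic fit, the odds ratio of overlap for clustered against lone peaks was 0.905 (n = 1255 peaks, 95% interval 0.654 to 1.25, p = 0.547). The interval leaves room for lower and for higher odds in clusters. With a link distance of 5000 bp the odds ratio was 1.09, which did not pass either. In the weakest score class 9 of 91 clustered (9.89%, 4.62 to 17.9%) and 21 of 160 lone peaks (13.1%, 8.31 to 19.4%) overlapped. In the middle class, with scores from 5.09 to 6.30, 41 of 71 clustered (57.7%, 45.4 to 69.4%) and 99 of 180 lone peaks (55.0%, 47.4 to 62.4%) did. In the strongest class all 63 clustered (exact interval 94.3 to 100%) and all 188 lone peaks (98.1 to 100%) did. With 3 counts taken as the limit for a count of 0, the share of these clustered peaks without overlap could be up to 4.76%. The difference was between −5.55 and 2.75 points in each class, with intervals that held 0.

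**Figure D4:**
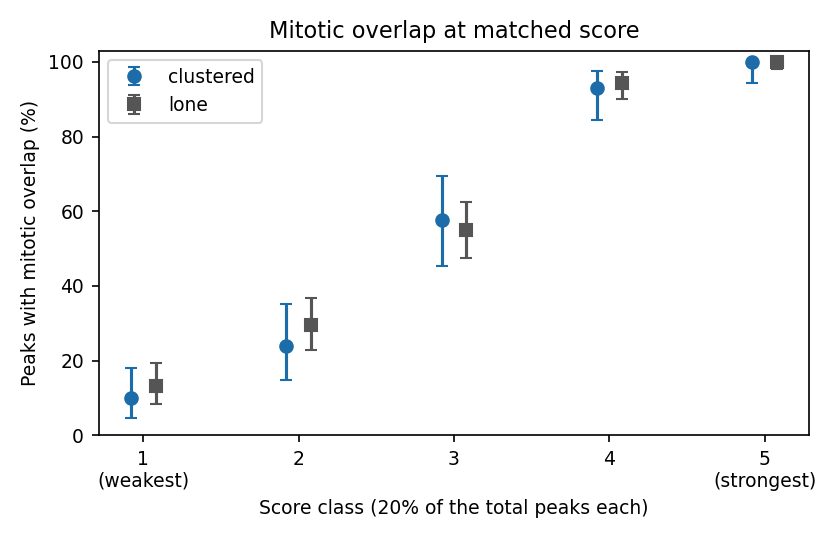
Share of peaks that overlap a mitotic peak (vertical axis, percent) by score class of 20% of the total peaks on the 4 arms each (horizontal axis, weakest to strongest), for clustered (circles) and lone (squares) peaks with exact 95% binomial intervals. Both classes rise to 100% from 9.89% and 13.1%, and their intervals overlap in every class (for example 57.7% and 55.0% in the middle one).

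The arms were not alike in this difference. On 3L 25 of 70 clustered peaks overlapped a mitotic peak (35.7%, 24.6 to 48.1%) against 132 of 231 lone peaks (57.1%, 50.5 to 63.6%). On X the counts were 77 of 135 (57.0%) and 134 of 208 (64.4%), and on 3R 65 of 116 (56.0%) and 172 of 280 (61.4%). On 2L they were 30 of 50 (60.0%) and 92 of 165 (55.8%). The test of each arm against the other 3, chosen after seeing the data, gave for 3L a ratio of odds ratios of 0.488 (n = 1255 peaks, 95% interval 0.308 to 0.771, p = 0.00859 adjusted over the 4 arms by the Benjamini-Hochberg method in the logistic fit). For 2L, 3R and X the adjusted p was 0.293, 0.984 and 0.993. Clustered peaks on 3L were also weaker, with a median score of 4.86 against 5.72 for lone peaks there. With the score in the fit the ratio for 3L was 0.736 (n = 1255 peaks, 0.373 to 1.45, adjusted p = 0.538). Of the 32 clusters on 3L, 13 had no overlapping member (40.6%), against 13 of 55 on 3R, 11 of 61 on X and 3 of 23 on 2L.

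By cluster, 52 had mitotic overlap at every member, 79 at some and 40 at none. At least 1 member overlapped in 131 of 171 clusters and at least 2 in 61. The 5 clusters of 3 with overlap at every member included one on 3R at 788023 to 797275, with total scores of 11.07, 4.77 and 19.27 and mitotic scores of 16.95, 8.38 and 27.06. Another, on X at 8980456 to 8984005, packed 3 peaks with scores of 7.26, 7.75 and 9.89 and mitotic scores of 9.63, 9.71 and 11.04 into 3.55 kb. The single cluster of 3 without any overlap, on 3L at 14021725 to 14030526, scored 4.08, 4.94 and 3.09. Among pairs, those with overlap at both peaks had a median score of 6.96 per peak, mixed pairs one of 5.52 and pairs without overlap one of 4.28.

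Members with an overlapping neighbour overlapped more often, and the test of this was at its threshold. Of 193 members whose nearest neighbour overlapped a mitotic peak, 119 did so themselves (61.7%, 54.4 to 68.5%), against 78 of 178 whose neighbour did not (43.8%, 36.4 to 51.4%). Among lone peaks the same shares were 309 of 506 (61.1%, 56.7 to 65.3%) and 221 of 378 (58.5%, 53.3 to 63.5%). With the score of the peak in the logistic fit, the odds ratio was 1.90 for near neighbours (n = 1255 peaks, 95% interval 1.01 to 3.57, p = 0.0478) and 1.33 for far ones (0.939 to 1.89, p = 0.108). The ratio of these odds ratios was 1.42 (n = 1255 peaks, 0.663 to 3.06, p = 0.365), so the 2 were not shown to differ. With errors grouped by cluster the near odds ratio no longer passed (n = 1255 peaks, p = 0.0653), nor did it without 2L (1.83), without 3R (1.70) or without X (2.02). It also did not pass in the stronger 50% of each list (1.24), without neighbours within 2000 bp (1.85) or with midpoints within 500 bp as the overlap (1.71). Peaks that are each other's nearest neighbour enter both the shares above and the fit once each way. The intervals of these shares take such peaks as independent, so they can be too narrow. Links are counted once each in what follows.

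Across links of all lengths, both peaks had the same status in 17 of 28 links of up to 2 kb (60.7%, 40.6 to 78.5%), in 49 of 75 of 2 to 5 kb (65.3%, 53.5 to 76.0%) and in 52 of 97 of 5 to 10 kb (53.6%, 43.2 to 63.8%). Beyond that the shares were 51.2% of 170 links of 10 to 20 kb, 51.7% of 315 of 20 to 50 kb and 54.9% of 566 longer ones. Over all near links the share was 118 of 200 (59.0%, 51.8 to 65.9%) and over far links 561 of 1051 (53.4%, 50.3 to 56.4%), with overlapping intervals.

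**Figure D5:**
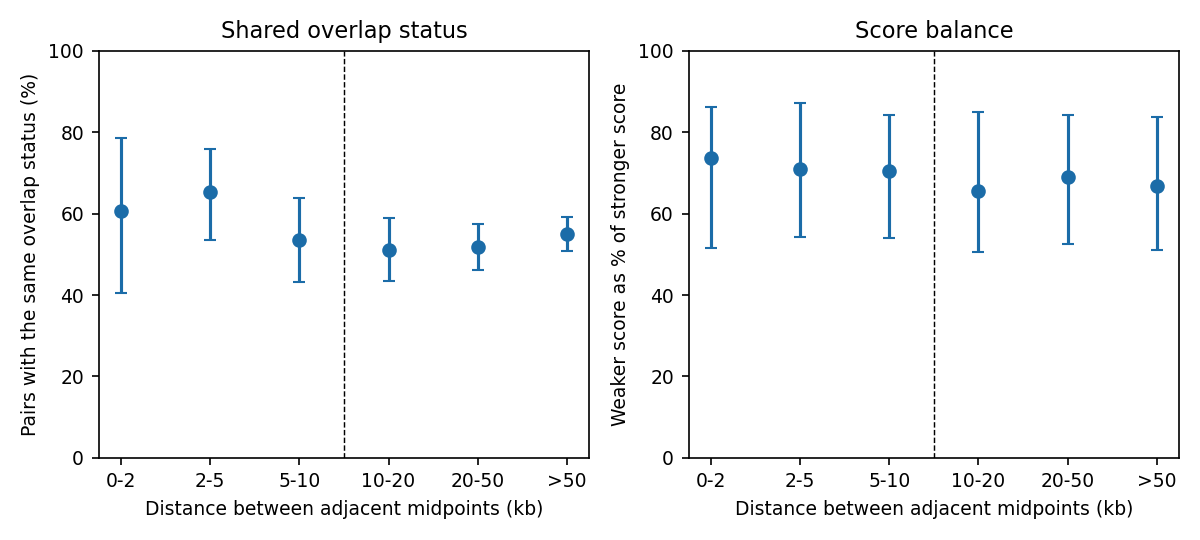
Adjacent total peaks by midpoint distance (horizontal axis, kb; the dashed line marks the link distance of 10 kb). Left, share of pairs in which both or neither peak overlaps a mitotic peak, with exact 95% binomial intervals; right, median score of the weaker peak as percent of the stronger, with bars for the middle 50%. The same status is shared by 65.3% of links of 2 to 5 kb and 51.2% of links of 10 to 20 kb, and the balance stays between 65.6 and 73.5%.

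In mixed clusters the overlap mostly followed the score. In 67 of 79 mixed clusters every overlapping member scored at least as high as every member without overlap, and among the 61 mixed pairs this held in 55. Over all clusters the strongest member overlapped in 122 of 171 (71.3%, 63.9 to 78.0%) and the weakest in 60 of 171 (35.1%, 28.0 to 42.7%). Their median scores were 7.05 and 4.57, on either side of the 5.75 of lone peaks. Both kinds of member were picked by score, so this order of medians follows from the pick. Overlap also rose with the score among lone peaks, from 13.1% in the weakest score class to 100% in the strongest. A higher overlap of stronger peaks is thus not particular to clusters. The count of 67 of 79 was not set against mixed links between neighbours farther apart, so it does not show a property of clusters.

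There were 12 exceptions, 6 of them pairs, which were named after their values were seen. On 3R at 17307308 to 17314179 the weaker peak (score 6.88) overlapped a mitotic peak (mitotic score 9.33), while the neighbour with a score of 8.27 did not. That neighbour, at 17313174 to 17314179, was the strongest member without mitotic overlap. On 3L at 18941914 to 18950858 the peak that overlapped scored 4.24 and the one that did not scored 5.78. On 3L at 3222593 to 3225450 the scores were 5.16 with and 6.24 without overlap. In the other 3 such pairs, all on X, the scores differed by little: 5.49 with and 5.55 without, 5.67 and 5.81, and 4.57 and 4.68.

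Some pairs without any mitotic overlap held a peak above 5.67, the median score over all 1255 peaks. The highest summed score among the 39 pairs without overlap was on 3R at 18312360 to 18317638, with scores of 8.06 and 4.02. It was followed by 3R at 9914186 to 9924944, where they scored 5.90 and 5.46, and by 2L at 18448490 to 18455058, where the peaks scored 4.19 and 6.27. At the other end, the weakest members that did overlap scored 3.25 (3L at 647645 to 649750), 3.38 (X at 4578278 to 4579080) and 3.53 (3R at 18878745 to 18880482), with mitotic scores of 5.14, 5.90 and 5.13.

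Where neighbours both overlapped, the order of their scores was mostly the same in both lists. Leaving out ties, the stronger total peak was also the stronger mitotic peak in 55 of 63 near links (87.3%, 76.5 to 94.4%) and in 313 of 365 far links (85.8%, 81.7 to 89.2%). The median fold between neighbours was 1.42 for total and 1.43 for mitotic scores in near links and 1.41 and 1.45 in far links. The ratio of mitotic to total score was 1.49 at the median cluster member and 1.50 at the median lone peak, on scales with no stated relation. At equal total score the log2 ratio of clustered peaks differed from that of lone peaks by −0.03 (n = 727 peaks, 95% interval −0.06 to 0.00, p = 0.0803), which did not pass. It passed with a link distance of 20000 bp (−0.034) and in the stronger 50% of each list (−0.047).

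The mitotic list had clusters of its own only where the total list had them. By the same rule 126 of its 735 peaks on these arms were in 60 clusters, 6 of them of 3 or more. In each of the 60 all peaks overlapped members of 1 total cluster. This was close to fixed in advance, since almost every mitotic peak lay within the borders of a total peak. Mitotic peaks that lie close together thus nearly always belong to total peaks that lie close together. Of the 7 mitotic peaks without a total peak, 1 lay within 10 kb of a total peak, on 2L at 16487410 to 16488108, next to a lone peak at 3667.5 bp. None lay within that distance of a cluster member.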

How the data were processed

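DREF ChIP-seq peak lists from Kc167 cells were used, 1 list each for total and mitosis, with 2 libraries per condition in the labels. Bowtie 0.12.5 was the aligner, per the submitters' processing notes. For peak calling, duplicate reads, pooling and the build, the tools and settings are not given in the sources that were used. Sequence names such as XHet and Uextra are those of Release 5 (dm3). The authors deposited a score per peak, of unstated unit and normalization, which was used as it stands. The score of a shared peak in the mitotic list is that of its highest overlapping mitotic peak. Starts were converted to count from 1. No genome or annotation of this build was used, so no peak was given a gene, exon, intron or sequence.

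Total peaks on 2L, 3L, 3R and X were chained at midpoint distances of up to 10000 bp. Shares carry exact (Clopper-Pearson) 95% intervals and the difference of shares a Newcombe interval. An upper limit for a count of 0 is 3 counts of the total. Both rest on counting alone and take peaks to be independent. Logistic and linear fits over all peaks had standard errors grouped by 1-Mb bin, and a difference passed when its two-sided 95% interval left out the null value. Peaks are not biological replicates. With no values per library, the conditions could not be tested against each other across libraries. The fits of overlap at equal score, of score, of overlap by a near neighbour and of score balance were tested on simulated data. The other fits, among them those of the arms and of the ratio of mitotic to total score, were not. The planted effects on score and overlap were larger than those found here, and simulated peaks without a planted effect were independent. The simulations therefore do not show how the fits do with small effects or with peaks that are alike within a region. Clusters were named by rule: the 3 with the most members, overall and among mixed clusters (some members with and some without mitotic overlap), the peaks nearest to the link limit, and the 3 pairs each with the highest sum, the smallest distance, the most equal and most unequal scores and the highest sum without mitotic overlap. Others were named after their values were seen. The members, comparisons and naming rule were chosen with earlier results of these data known. Python 3.11.15, numpy 2.4.6, pandas 2.3.3, scipy 1.17.1, statsmodels 0.14.6 and matplotlib 3.10.9 were used. Alternatives changed the link distance, the definition of distance and overlap, the score limit, the arms, the grouping of errors and the score term.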

Additional observations from a re-analysis of the deposited data

Results flagged for a closer look

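The difference between clustered and lone peaks on 3L stood apart from that on the other arms in 2 measures, each by the interaction term of a fit over all peaks. For mitotic overlap the ratio of odds ratios was 0.488 (n = 1255 peaks, 95% interval 0.308 to 0.771, adjusted p = 0.00859 over 4 arms). For the score the log2 difference, clustered minus lone, on 3L differed from that elsewhere by −0.20 (n = 1255 peaks, −0.34 to −0.06, adjusted p = 0.0182). On 3R it differed the other way, by 0.17 (n = 1255 peaks, 0.02 to 0.31, adjusted p = 0.0539). That interval, which is not adjusted, left out 0. For X and 2L the adjusted p of the score term was 0.297 and 0.584. The tests of the arms were chosen after seeing the data. The 2 results for 3L are not independent of each other, since overlap follows the score. At equal score the ratio for overlap on 3L was 0.736 and did not pass (n = 1255 peaks, 0.373 to 1.45, adjusted p = 0.538 in the logistic fit). That interval also holds 0.488. Whether the lower scores account for the lower overlap on 3L was not tested.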

How the results depend on the processing

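Of 80 alternative values over 7 results, 56 changed neither direction nor call and, for the share in clusters, fell inside its interval. The share of peaks in clusters is set by its definition. It was 15.8% and 49.2% with link distances of 5000 and 20000 bp, 32.7% between borders, 14.0% in the stronger 50% of each list, 26.4% without members that have a neighbour within 2000 bp and 25.9% without X. The difference in mitotic overlap no longer passed at 5000 bp (−4.02 points), in the stronger 50% (−9.17 points, with fewer peaks) and without 3L (−3.81 points). With errors grouped by 1-Mb bin, added after seeing the data, its interval was −12.6 to −1.09 points. At equal score the odds ratio turned to 1.09 at 5000 bp and was 0.719 at 20000 bp (0.516 to 1.002). It was below 1 in all other alternatives, and no value passed. The log2 difference of scores no longer passed at 5000 bp (−0.086), at 20000 bp (−0.057) and without 3L (−0.075). The odds ratio by the overlap of a near neighbour no longer passed in the stronger 50% (1.24), without neighbours within 2000 bp (1.85), without 2L (1.83), without 3R (1.70), without X (2.02), with midpoints within 500 bp as the overlap (1.71) and with errors grouped by cluster (1.90). The balance of near against far neighbours passed in the stronger 50% (−0.11) and without 3R (−0.10). The log2 ratio of mitotic to total score of clustered against lone peaks passed at 20000 bp (−0.034) and in the stronger 50% (−0.047). The cause of these changes was not tested. No paired analysis was possible because the lists hold no values for single libraries, which also means that none could be omitted. Depth is unknown, so a missing mitotic peak cannot be told apart from one below detection.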
